A study of Mus musculus with 6 samples.

Results

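The cells described here are the endothelial cells (ECs) of cluster 16 in tumors that H22 cells formed in the mouse liver. H22 is a murine hepatocellular carcinoma (HCC) line. The authors' table of annotated cells gives each cell a cluster number and a cell type, and the members are all cells with cluster number 16 and the label of endothelial cells. There were 1247 such cells among 11433 ECs and 58794 annotated cells, and no cell of cluster 16 carried another label. Tumors were grown orthotopically in wild type male C57BL/6J mice that were 8 weeks old when obtained, and so older when they bore tumors. The 3 stress mice went through chronic unpredictable mild stress (CUMS) for 21 days, and the 3 control mice received the same tumor cells and no stressor. Each mouse gave 1 single-cell library, in which every captured molecule of RNA is counted once by its unique molecular identifier (UMI). A tumor of an injected line holds tumor cells of 1 origin beside host cells, and the line was passed through ascites before it was implanted.

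ECs line blood vessels and are recognised by junction and signaling proteins such as Pecam1, Cdh5 (VE-cadherin) and Kdr (a VEGF receptor). In the liver most of them are sinusoidal: they are fenestrated, take up material from the blood through scavenger receptors and lectins such as Stab2, Mrc1 and Clec4g, and secrete Wnt-enhancing factors such as Rspo3 near the central vein. An EC usually holds far less RNA than a tumor cell. In droplet libraries a barcode can also collect the RNA of more than 1 cell, which is called a doublet.

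Cluster 16 held 307, 206 and 196 cells in the control mice and 240, 170 and 128 cells in the stress mice. The annotated cells of a library together held 149558935 to 187728350 UMIs. UMIs per cell were summed here from the deposited counts. They equalled the authors' value for the cell in 68.3% to 76.7% of the annotated cells of a library, and why the rest differed was not tested. Of 58402 distinct barcodes, 386 occurred in at least 2 libraries, and 14 cells of cluster 16 had a barcode that also occurred in another library, in no case in another cell of cluster 16. Control matrices were made with Cell Ranger 9.0.0 and stress matrices with Cell Ranger 7.1.0, so every difference between the groups could come from stress or from the software, which cannot be told apart.

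The cluster was made up of 2 kinds of cell that differed in depth. Of its cells, 661 held at least 5000 UMIs and 586 held fewer, and 31 cells lay between 3000 and 8000 UMIs. The deep cells had a median of 30397 UMIs and 6310 detected genes, the shallow cells a median of 1439 UMIs and 978.5 genes. Cluster 2, an EC cluster of 4789 cells used here for comparison, had a median of 4375 UMIs, and tumor cells had 27716. The name "deep" therefore holds for part of the cluster only. The split at 5000 UMIs was set after the distribution was seen, and the cells just inside and just outside it held 5009 and 4344 UMIs. Deep cells numbered 167, 135 and 99 in the control mice and 92, 88 and 80 in the stress mice. Together they supplied 95.8% of all UMIs of the cluster. All values that compare these cells with cluster 2 or tumor cells are a description without a test, since the cells had been clustered on the same genes.

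Both kinds carried the endothelial markers. Pecam1, which lies on chromosome 11 (106654217 to 106750628, minus strand, mm10), gave a mean of 2.96, 2.59 and 4.13 UMIs per deep cell in the control mice and 3.75, 2.81 and 5.10 in the stress mice. The range over mice was 3.32 to 5.09 in cluster 2, 0.662 to 1.73 in the shallow cells and 0.0693 to 0.322 in tumor cells. For Cdh5 (chromosome 8, 104101625 to 104144511, plus strand) the means of the deep cells ran from 3.44 to 5.91 UMIs, those of cluster 2 from 4.19 to 6.25 and those of tumor cells from 0.0526 to 0.113. A deep cell thus held about as many molecules of these junction genes as a cell of cluster 2, within far more RNA. At least 1 Cdh5 UMI was found in 94.7% of deep cells, 61.9% of shallow cells, 96.9% of cluster 2 and 6.25% of tumor cells, at the depths given above.

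The deep cells also carried the genes of the tumor. Krt18, a keratin of epithelial cells (chromosome 15, 102028180 to 102032027), gave a mean of 7.26, 5.54 and 7.70 UMIs per deep cell in the control mice and 15.7, 10.2 and 6.79 in the stress mice. Tumor cells ranged from 8.49 to 19.4 UMIs, and cluster 2 from 0.0435 to 0.0954. In the shallow cells Krt18 did not exceed 0.0845 UMIs in any mouse. Epcam, the epithelial cell adhesion molecule, gave 3.39 UMIs per deep cell on average over mice, 4.23 per tumor cell and 0.0281 per cell of cluster 2. Afp, the fetal albumin-like protein used as a marker of HCC, gave 1.95, 2.32 and 0.0118 UMIs. Krt18 and Cdh5 were found together in 83.8% to 94.9% of the deep cells of a mouse, against 4.01% to 7.64% of the cells of cluster 2 and 4.75% to 8.24% of tumor cells, whose depth was similar to that of the deep cells.

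To describe this over many genes, the genes at 100 CPM (UMIs relative to the summed UMIs of those cells in a mouse, on the usual scale of counts) or more in one of the 2 cell types, and in every mouse at least 10 times their CPM in the other, were taken as endothelium-specific (420 genes, cluster 2 over tumor cells) and tumor-specific (43 genes, tumor cells over cluster 2). Cluster 16 was not used to choose them. Endothelium-specific genes made up a median of 2.77% of the UMIs of a deep cell, 18.6% of a shallow cell, 20.01% of a cell of cluster 2 and 0.243% of a tumor cell. Tumor-specific genes made up 2.02% of a deep cell, 0.124% of a shallow cell, 0.0725% of a cell of cluster 2 and 2.29% of a tumor cell. Single cells ran from 0.929% to 9.06% endothelium-specific UMIs among the deep cells, and the lowest shallow cell held 4.03%.

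**Figure D1:**
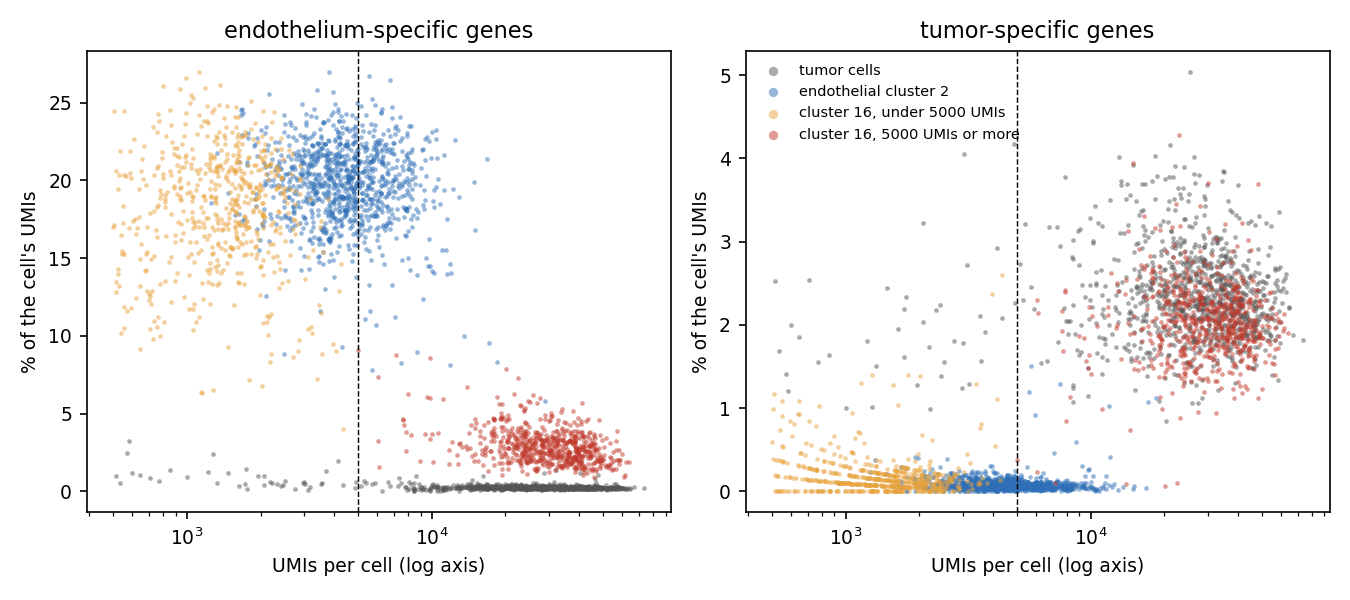
Share of each cell's UMIs that came from endothelium-specific genes (left) and tumor-specific genes (right) against its UMIs on a log axis, for all 1247 cells of cluster 16 and for 1000 cells each drawn at random from cluster 2 and from tumor cells. Shallow cells of cluster 16 lie near cluster 2 on the left (medians 18.6% and 20.01%) and somewhat above it on the right (0.124% and 0.0725%), and deep cells lie at the level of tumor cells on the right and between cluster 2 and tumor cells on the left. The dashed line marks 5000 UMIs.

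In numbers of molecules, a deep cell held the content of both. The median deep cell held 650, 701 and 1000 endothelium-specific UMIs in the control mice and 922.5, 926.5 and 1200.5 in the stress mice, and the median cell of cluster 2 held 683, 691, 958.5, 928, 943.5 and 1143 in the same mice. The median deep cell held 535, 556 and 753 tumor-specific UMIs in the control mice and 727.5, 672.5 and 565.5 in the stress mice, where the median tumor cell held 551, 588, 787, 725, 700 and 643. In every mouse the deep cells lay close to cluster 2 in the first count and close to tumor cells in the second. A shallow cell held 184 to 376 endothelium-specific UMIs and 2 tumor-specific UMIs in the median of every mouse.

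**Figure D2:**
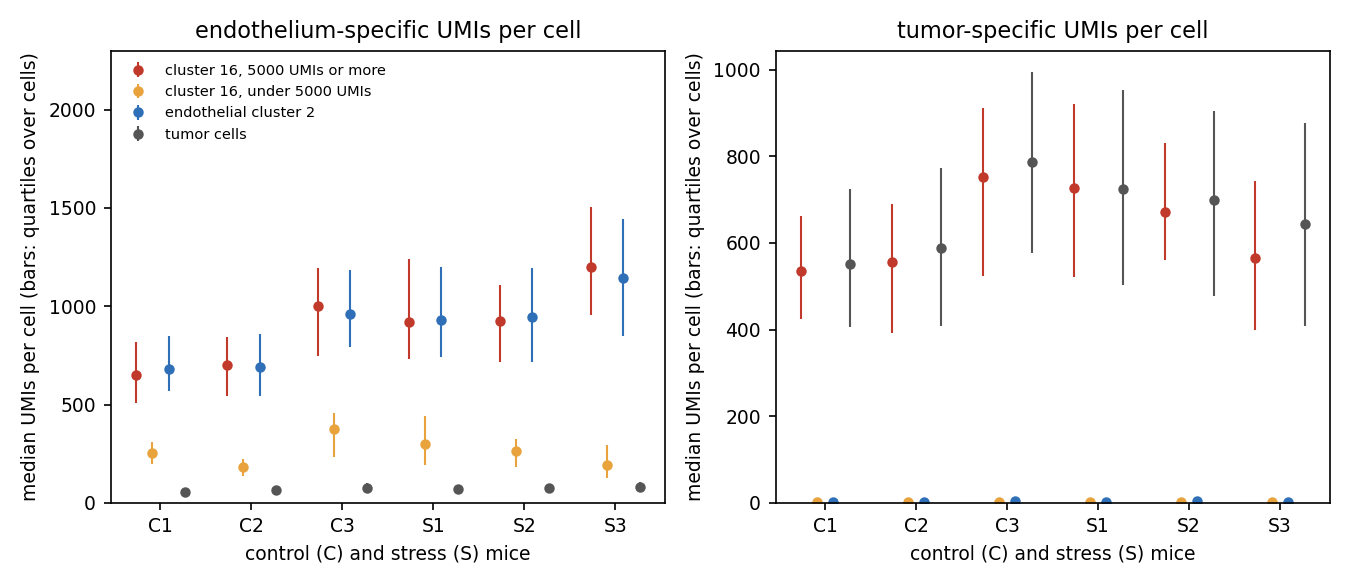
Median number of endothelium-specific UMIs (left) and tumor-specific UMIs (right) per cell in each of 3 control (C) and 3 stress (S) mice, with bars from the lower to the upper quartile over cells. Deep cells of cluster 16 lie beside cluster 2 on the left (650 against 683 in C1) and beside tumor cells on the right (535 against 551 in C1).

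The same held gene by gene. Over the 7626 genes with a mean of at least 0.5 UMIs when a cell of cluster 2 and a tumor cell were added together, the mean of a deep cell divided by that sum had a median of 0.980, 0.983 and 0.949 in the control mice and 1.01, 0.979 and 0.980 in the stress mice. The middle 50% of genes lay between 0.850 and 1.12 in all mice. The mean ratio over mice lay between 2/3 and 1.5 for 99.8% of these genes, and the total UMIs of a deep cell were 91.6% to 97.1% of the summed total. The tumor cell supplied most of that sum, 23121 of 26784 UMIs in control mouse 1, so ratios over all genes say little about the endothelial part. For the endothelium-specific genes, a deep cell divided by a cell of cluster 2 gave medians of 0.851 to 1.01 over the mice.

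Among the exceptions, 4 genes stood at 1.5 times the sum or higher in all 6 mice: Rspo3, Icam1, Cxcl10 and Selp. Selp encodes P-selectin, which tethers leukocytes to activated endothelium, and averaged 5.48 UMIs per deep cell, 2.57 in cluster 2 and 0.0860 in tumor cells. Rspo3 averaged 2.26, 0.739 and 0.0246 UMIs, and the leukocyte adhesion receptor Icam1 averaged 1.25, 0.471 and 0.0395. Among other endothelial clusters, Selp averaged 14.99 UMIs per cell in cluster 8, Rspo3 16.2 in cluster 18, and Icam1 3.55 in cluster 8, and all 3 genes were lower per cell in cluster 15 than in cluster 2. Cluster 15 was also shallower, at a median of 1212 UMIs against 4375. As a median share of endothelium-specific UMIs, Rspo3 was higher in cluster 15 than in cluster 2 (0.272% against 0.0738%) and Selp lower (0.254% against 0.305%). Cxcl10, a chemokine that attracts T cells, averaged 2.87 UMIs per deep cell, 0.519 in cluster 2 and 0.683 in tumor cells. Its ratio to the sum ran from 1.76 to 3.75 over mice. Gm8797 alone stood at 2/3 of the sum or lower in all 6 mice, at 11.8 UMIs per deep cell and 20.2 per tumor cell. Of the other genes, the kappa light chain Igkc stood furthest from the sum on average. Its 4178 UMIs in 1 deep cell of stress mouse 2 and 8865 UMIs in 3 deep cells of stress mouse 3 made up nearly all that was counted, and no deep cell of the other 4 mice held more than 3.

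**Figure D3:**
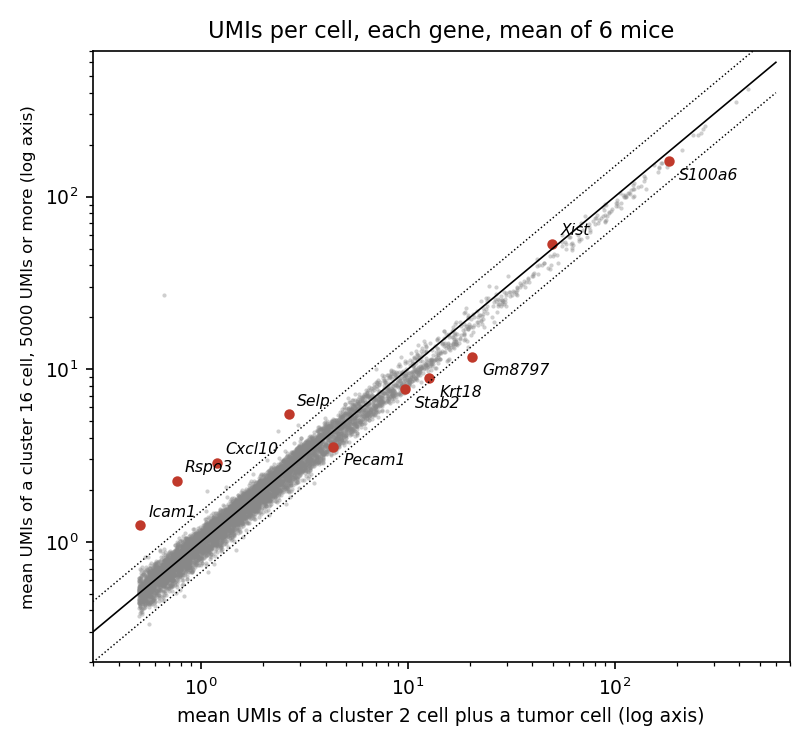
Mean UMIs per deep cell of cluster 16 against the sum of the means of a cluster 2 cell and a tumor cell, both on log axes, for 7626 genes averaged over 6 mice. The solid line marks equality and the dotted lines 1.5 times more or less. Endothelial Stab2 and tumor Krt18 lie between the dotted lines, and Selp, Rspo3, Icam1 and Cxcl10 lie above the upper dotted line.

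The hosts were male and the tumor cells were rich in Xist. Xist is one of the 43 tumor-specific genes and Uty one of the 420 endothelium-specific genes, so that both show what is already part of those lists. Xist, the RNA that silences an X chromosome in female cells (chromosome X, 103460366 to 103483254), gave 45.3, 52.1 and 60.3 UMIs per deep cell in the control mice and 62.5, 48.2 and 52.3 in the stress mice. Tumor cells held 42.5 to 59.1 Xist UMIs, cluster 2 held 0.313 to 0.603 and shallow cells held 0.0825 to 0.479. Uty, a histone demethylase gene of the Y chromosome (1096861 to 1245759), gave 0.329 to 0.775 UMIs per deep cell, 0.460 to 0.978 in cluster 2 and 0.00813 to 0.0272 in tumor cells. The deep cells therefore matched tumor cells in Xist and cluster 2 in Uty. Xist and at least 1 of 4 Y-linked genes were found together in 71.3% of deep cells and 5.12% of shallow cells, against a background of 16.1% in cluster 2 and 27.5% in tumor cells.

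Scrublet, which scores each barcode against simulated pairs of cells of the same library, called 557 of the 661 deep cells doublets (84.3%). The share in the deep cells of a mouse was 73.7%, 88.1% and 76.8% in the control mice and 91.3%, 96.6% and 87.5% in the stress mice. The score cutoff was set for each library, at 0.249, 0.188 and 0.212 in control and 0.218, 0.153 and 0.174 in stress. The part of the cutoff in these shares was not tested. Of the shallow cells 3.24% were called, of cluster 2 1.48% and of tumor cells 1.42%. High shares were not particular to the deep cells: 211 of 229 cells of endothelial cluster 24 (92.1%) and 42 of 73 of endothelial cluster 27 (57.5%) were called. The study's methods name a doublet removal before annotation, and which barcodes it removed is not analysed here. Whether a deep barcode held 1 cell or more was not tested by any measurement other than these counts. Outside the cluster, 217 of 29638 tumor cells (0.732%) reached the endothelium-specific share of the 5th percentile of the deep cells (1.48%), and 95 of them were called. Of the 4789 cells of cluster 2, 16 (0.334%) reached their tumor-specific share of 1.35%, and 12 were called. In endothelial clusters 8, 18 and 15 the same share was reached by 19 of 2847 cells (0.667%), 25 of 989 (2.53%) and 33 of 1259 (2.62%), of which 18, 21 and 25 were called.

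Summed over all its cells, cluster 16 led cluster 2 in genes of the tumor. The gene furthest above cluster 2 was Gm49980, at a mean of 2285 CPM in cluster 16. Xist followed at 1606 CPM, the glucose transporter Slc2a3 stood at 1787 CPM, the chromatin protein Hmga2 at 1050 CPM and the calcium-binding S100a6 at 4862 CPM. Of the 20 leading genes, 16 belonged to the tumor-specific genes. The 10 genes furthest below cluster 2 were, in order, Selenop (plasma selenium carrier) at 299.6 CPM, the Fc receptor Fcgr2b at 304.5 CPM, Gpr182, the endothelial adhesion gene Esam, the fatty acid carrier Fabp4, Adam23, the lectin Clec4g at 254.9 CPM, Lifr, the mannose receptor Mrc1 and the secreted nuclease Dnase1l3 at 114.1 CPM. The tumor-specific genes stood at a median of 74.2% to 86.5% of their tumor level in the 6 mice, and the endothelium-specific genes at 15.03% to 20.2% of their level in cluster 2.

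In CPM of the summed cluster, most genes lay between both. Of 5097 genes at 50 CPM or more, 3220 (63.2%) lay between cluster 2 and tumor cells in all 6 mice, and 0 reached 2 times the higher of them in all 6. Above both in all 6 mice were 285 genes, by small margins: Nup153, a protein of the nuclear pore, came first with a smallest ratio of 1.19, then Cavin1, of the caveolae, with 1.16.

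Proliferation genes followed the tumor cells of the same mouse. The 91 genes of the S and G2/M phases made up a median of 0.256%, 0.584% and 0.525% of the UMIs of a deep cell in the control mice and 0.293%, 0.675% and 0.267% in the stress mice, and 0.267%, 0.757%, 0.355%, 0.266%, 0.665% and 0.295% of those of a tumor cell. Mki67, a protein of dividing cells, was found in 28.7% to 59.1% of deep cells, 29.98% to 49.0% of tumor cells and 0.624% to 3.94% of cluster 2. Top2a, the topoisomerase that untangles replicated DNA, averaged 7.30 UMIs per deep cell, 7.08 per tumor cell and 0.0829 per cell of cluster 2. In the shallow cells the genes of both phases made up 0.181% in the median, near the 0.169% of cluster 2, and 7 of 586 cells held an Mki67 UMI. A share of 0.5% was passed by 43.3% of deep cells, 5.63% of shallow cells, 1.36% of cluster 2 and 45.9% of tumor cells, at the different depths given above.

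The deep cells held sinusoidal genes near the level of cluster 2 and more of some venous and activated genes. Stab2, the hyaluronan scavenger receptor, averaged 7.65 UMIs per deep cell and 9.56 in cluster 2, and Clec4g averaged 7.09 and 8.52. Fcgr2b averaged 8.84 and 10.7 UMIs, and Mrc1 4.16 and 5.57. Vcam1, an adhesion receptor of activated endothelium, averaged 4.36 UMIs per deep cell and 2.28 in cluster 2, and Selp stood above cluster 2 as given above. As a share of all UMIs, the venous and activated genes had a median over mice of 0.0620% in deep cells and 0.215% in cluster 2, and the sinusoidal genes 0.165% and 1.28%. Jam2, an adhesion molecule of endothelial junctions, averaged 3.77 UMIs per deep cell, 4.31 in cluster 2 and 0.0565 in tumor cells. F11r, which encodes JAM-A, averaged 2.73 UMIs per deep cell against 1.05 in cluster 2 and 1.93 in tumor cells. Of the markers of other cells, monocyte and macrophage genes made up 0.0119% to 0.0213% of the UMIs of deep cells and 0.0657% to 0.0961% of those of cluster 2. A deep cell held far more UMIs, so these shares do not compare numbers of molecules per cell. At least 1 UMI of Ptprc, a gene of this list, was found in 5.60% of deep cells, 2.13% of cluster 2 and 4.29% of tumor cells. The summed T and NK cell genes reached at most 0.00235%, B cell genes 0.000265% and stellate cell and fibroblast genes 0.00375% in the deep cells of a mouse. Erythroid genes made up 0.0607% in the deep cells of control mouse 3 and at most 0.000307% in those of the other mice, and dendritic cell genes at most 0.0108%.

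The shallow cells differed from cluster 2 in depth, in mitochondrial RNA and in some endothelial genes. Their median mitochondrial share was 3.97%, 6.19% and 4.31% in the control mice and 6.38%, 7.89% and 8.54% in the stress mice, against 1.84%, 2.65% and 1.91% and 2.59%, 3.50% and 2.74% in cluster 2. Of the 25 genes that stood furthest above cluster 2 in all 6 mice, 13 were mitochondrial, with log2 ratios between 1.16 and 1.35. Rspo3 led the 25, at a mean of 448 CPM against 153 CPM, and Malat1, a long RNA that stays in the nucleus, stood at 13899 CPM against 7188 CPM. Lower in the shallow cells were Gpihbp1, the capillary anchor of lipoprotein lipase, at 493 CPM against 1003 CPM, the fatty acid carrier Fabp4 at 925 CPM against 1751 CPM, and Selenop at 1003 CPM against 2164 CPM. The hemoglobin gene Hbb-bs stood furthest below cluster 2 on average, at a mean of 2.28 CPM against 225.7 CPM. Its log2 ratio differed widely between mice, from -6.12 to -0.226. These cells held a summed tumor-specific share of 0.153% to 0.413%, against 0.0833% to 0.165% in cluster 2. Endothelial cluster 15, also shallow at a median of 1212 UMIs, had a median mitochondrial share of 4.09% over all its cells. That of all shallow cells was 5.60% and that of cluster 2 was 2.46%. In cluster 15 Rspo3 stood at 262 CPM, Malat1 at 2565 CPM and Hbb-bs at 421 CPM. Its summed tumor-specific share ran from 0.247% to 1.49%.

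The share of ECs that fell in cluster 16 was compared between the groups. It was 15.7%, 9.78% and 12.9% in the control mice (12.8% ± 2.94, SD, n = 3) and 15.4%, 8.71% and 5.47% in the stress mice (9.86% ± 5.06, n = 3). The groups overlapped and the difference of -2.94 percentage points did not exceed their spread (p = 0.40, exact permutation test, two-sided), in a design whose smallest possible p is 0.10. It was -0.744 without stress mouse 3, and -1.53 (p = 0.80, same exact test) when endothelial cluster 15, which held 34, 104 and 81 cells in the control mice and 176, 450 and 414 in the stress mice, was left out of the ECs. The deep cells alone made up 8.52%, 6.41% and 6.54% of the ECs of the control mice and 5.90%, 4.51% and 3.42% of those of the stress mice. These did not overlap, and p was 0.10 in the exact permutation test, the smallest it can give. Of all annotated cells the deep cells made up 1.59%, 1.15% and 1.07% in the control mice and 1.27%, 0.932% and 0.756% in the stress mice, and there the groups overlapped. The shallow cells made up 7.14%, 3.37% and 6.41% of the ECs of the control mice and 9.49%, 4.203% and 2.05% of those of the stress mice. The split into deep and shallow cells was added after the data were seen. Among the 30 genes that lead or trail in the cluster, 1 (Selenop) differed with stress in the test below, where 0.636% of all genes tested passed.

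**Figure D4:**
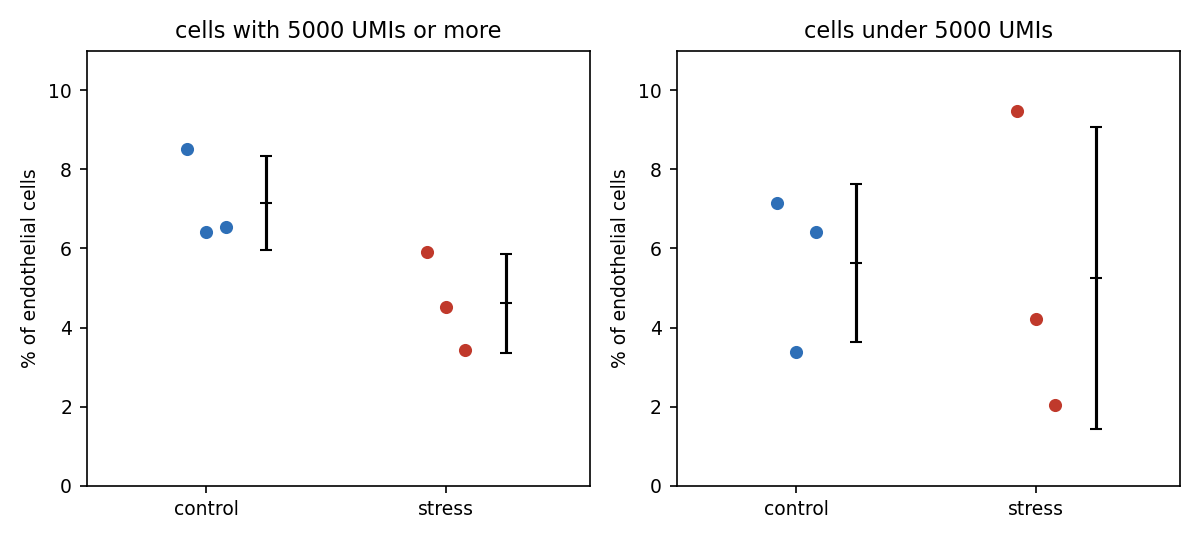
Percent of all ECs of a mouse that were cells of cluster 16 with 5000 UMIs or more (left) and under 5000 UMIs (right), one point per mouse, with the mean and SD of 3 mice beside them. On the left the stress mice (3.42% to 5.90%) lie below the control mice (6.41% to 8.52%), and on the right the groups overlap.

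Tumor-specific and proliferation genes in the summed cluster overlapped between the groups. The tumor-specific share was 1.92% to 2.16% in the control mice and 1.95%, 1.87% and 1.65% in the stress mice (p = 0.20, exact permutation test, two-sided). The S and G2/M genes together made up 0.522%, 0.681% and 0.623% in the control mice and 0.466%, 0.655% and 0.408% in the stress mice (p = 0.30, same exact test). Without the called doublets neither overlapped: the tumor-specific share was 1.65% to 1.95% in the control mice and 0.341% to 1.24% in the stress mice (difference -0.842 percentage points), and the proliferation share 0.420% to 0.575% and 0.242% to 0.374% (difference -0.175). That filter took out 73.7% to 88.1% of the deep cells of the control mice and 87.5% to 96.6% of those of the stress mice, and left fewer deep cells in each stress mouse than in any control mouse, and the part of this in the differences was not tested. Each gave p = 0.10 in the exact permutation test, the smallest it can give with 3 mice against 3. The score cutoff of the filter also differed between libraries, as given above.

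Gene by gene, UMIs summed per mouse over the cells of cluster 16 were tested with edgeR (quasi-likelihood test, Benjamini-Hochberg adjustment over all genes tested, threshold 0.05). CPM given with this test were also scaled by its library factors (TMM), so they differ somewhat from the CPM given above. Of 11632 genes tested, 74 passed (0.636%), of which 45 were higher under stress (0.387%) and 29 lower (0.249%). At an unadjusted p under 0.05 there were 1725 genes, and DESeq2 called 214 of 21740 tested. The count rested on single libraries: it was 26, 194 and 16 without control mouse 1, 2 and 3, and 41, 45 and 37 without stress mouse 1, 2 and 3. In cluster 2 0.196% of genes passed, and in tumor cells, which were far more numerous, 21.4%. Of the 74 genes of cluster 16, 65 also passed with the same sign in tumor cells. In cluster 2, 68 of the 74 were tested and 18 passed with the same sign, and 9 of the 74 passed in neither. All 9 had the same sign in tumor cells, with log2 fold changes of 0.354 to 0.928 in size. In cluster 2 all of them but Hspa1a and Rsad2 had the same sign. The part of tumor RNA in these counts was not tested. The 3 comparisons come from the same mice, and the sums of cluster 16 rest mostly on its deep cells.

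None of the 14 endothelial marker genes passed, nor did any of the 13 sinusoidal genes, and their median log2 fold changes were 0.27 and 0.35 beside -0.00231 over all genes tested. The medians were 0.32 and 0.45 in the deep cells and -0.08 and -0.17 in the shallow cells. With 0.636% of all genes past the threshold, a count of 0 in lists of this size says nothing about their members. Pecam1 stood at 156, 99.3 and 164 CPM in the control mice and 146, 95.2 and 153 CPM in the stress mice (log2 fold change -0.07 ± 0.22, SE; edgeR adjusted p = 0.91). Jam2 stood at 168, 70.2 and 179 CPM in the control mice and 228, 102 and 152 CPM in the stress mice, a log2 fold change of 0.23 ± 0.36 (edgeR adjusted p = 0.81). F11r stood between 76.4 and 90.3 CPM in the control mice and between 86.0 and 104 CPM in the stress mice (log2 fold change 0.16 ± 0.12, edgeR adjusted p = 0.59). The groups overlapped for all 3 genes. Of the 9 junction genes that were tested, 0 passed.

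The genes with the clearest rise were 5 that the same libraries had already shown to be high under stress in all cell types, and which are therefore no independent evidence. Cmss1, a nucleolar protein gene, stood at 193, 206 and 184 CPM in the control mice and at 766, 818 and 904 CPM in the stress mice (log2 fold change 2.12 ± 0.12, edgeR adjusted p = 0.000108). Lars2, the mitochondrial leucyl-tRNA synthetase, Gphn (gephyrin), the kinase Camk1d and the Mediator kinase Cdk8 rose by log2 fold changes of 2.07 to 2.27. Cluster 2 showed 2.58 to 3.03 for these 5 genes and tumor cells 1.55 to 2.23. In the shallow cells alone they stood at 2.74 to 3.42 and in the deep cells at 1.70 to 1.96. Of the 13 mitochondrial genes, 5 rose, beside 0.387% of all genes tested, with a list median of 0.54. Among them was mt-Nd2, a subunit of respiratory complex I, from 1086 to 1207 CPM in the control mice to 2131 to 2561 CPM in the stress mice.

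By size of change, the highest genes beside Cdk8 and Cmss1 were Il31ra, Gm56848, Tas1r1, Gm50333, Cldn34c1, Anxa11os, Lhfpl4 and 1700001K19Rik, at log2 fold changes of 2.18 to 2.67. They were low genes, none above 26.1 CPM in any mouse. The genes with the largest fall were Ctla4, Gm26532, Plxdc2, Eno1b, Gm46563, Map7, Cfap46, Nudcd3, Wdr89 and ENSMUSG00000121655. Plxdc2, a transmembrane protein of vessels, fell from 136, 104 and 122 CPM to 34.1, 43.1 and 34.0 CPM (log2 fold change -1.68 ± 0.15, edgeR adjusted p = 0.00142), and stood at -1.72 in cluster 2 and -1.68 in tumor cells. Wdr89 fell from 426, 324 and 351 CPM to 152, 139 and 111 CPM (-1.43 ± 0.15, edgeR adjusted p = 0.0045). Ctla4, known as an inhibitory receptor of T cells, fell from 57.4 to 71.7 CPM to 11.3 to 22.6 CPM, and stood at -1.99 in cluster 2 and -1.81 in tumor cells. Of the 74 genes, 20 have a predicted-gene, pseudogene or retrotransposed-copy symbol, a symbol ending in Rik or only an identifier. Whether reads from near-identical copies bear on the counts of such genes was not tested.

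**Figure D5:**
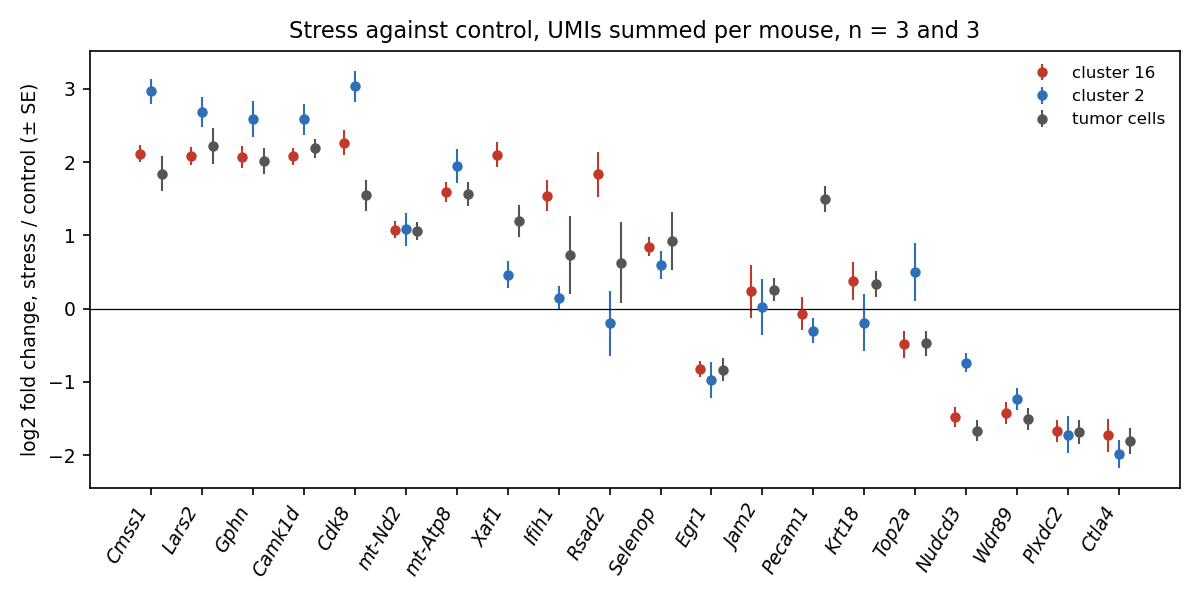
Log2 fold change between stress and control mice (points, bars ± SE) from UMIs summed per mouse, n = 3 and 3, in cluster 16, cluster 2 and tumor cells, for genes named in the text and Ifih1, which was picked after its value was seen. Cmss1, Lars2, Gphn, Camk1d and Cdk8 lie above 1.5 in all 3, Xaf1 lies at 2.10 in cluster 16 and 0.46 in cluster 2, and Pecam1 lies near 0 in cluster 16.

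Of the 18 interferon response genes that were tested, 1 passed, beside 0.636% of all genes tested, and the list's median log2 fold change was 0.56, beside -0.00231 over all genes. It was 0.52 in the deep cells, -0.20 in the shallow cells (6 genes tested), 0.16 in cluster 2 and 0.24 in tumor cells. Rsad2 (viperin, an antiviral enzyme) stood at 5.11, 4.52 and 7.98 CPM in the control mice and 27.8, 14.9 and 18.6 CPM in the stress mice (log2 fold change 1.83 ± 0.31, edgeR adjusted p = 0.037). Its log2 fold change was -0.20 in cluster 2 and 0.63 in tumor cells, and it passed in neither. Isg15, a ubiquitin-like protein induced by interferon, stood at 3.48, 6.77 and 13.4 CPM and at 23.5, 14.3 and 15.5 CPM, and did not pass (edgeR adjusted p = 0.22).

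Of the 16 immediate early genes 1 passed, namely Egr1, a transcription factor induced by growth signals and stress. It fell from 1300, 1067 and 1275 CPM to 669, 665 and 683 CPM (log2 fold change -0.83 ± 0.11, edgeR adjusted p = 0.014), and stood at -0.98 in cluster 2 and -0.83 in tumor cells. Fos, its companion in that response, stood at -0.92 and did not pass (edgeR adjusted p = 0.071). The median log2 fold change of the 16 genes was smaller, at -0.14 in cluster 16, -0.70 in cluster 2 and -0.29 in tumor cells. None of the 14 glucocorticoid response genes passed, and their median log2 fold change was -0.11. Tsc22d3 (GILZ) stood at -1.12 ± 0.46 and Fkbp5 at -0.41 ± 0.42, both below that median, with overlapping groups. Of the 41 S phase and 49 G2/M genes 0 passed, and the median log2 fold change of the G2/M genes was -0.60 in cluster 16, -0.56 in tumor cells and 0.14 in cluster 2. Of the 420 endothelium-specific genes 4 passed, a share near the 0.636% of all genes tested, and their median log2 fold change was 0.22. The 4 were higher under stress, namely Prex2, Kit, Psd3 and Selenop, named after their values were seen. Their log2 fold changes were 0.587, 0.723, 0.823 and 0.594 in cluster 2. In tumor cells they were 0.354, 0.566, 0.375 and 0.919, and none of the 4 genes passed in either. Selenop stood at 180, 225 and 241 CPM in the control mice and at 375, 394 and 373 CPM in the stress mice, a log2 fold change of 0.84. Of the 43 tumor-specific genes 1 passed, the pseudogene Rps18-ps6.

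When the 2 kinds of cell were tested apart, 62 of 11443 genes passed in the deep cells (0.542%) and 12 of 3399 in the shallow cells (0.353%). The 8 genes that rose in the shallow cells (0.235%) included the 5 named above, mt-Atp8 and Gm19951. The 4 that fell (0.118%) were Ly6a (-2.27), the fatty acid carrier Fabp5 (-1.82), Rhoc (-1.62) and the endothelial adhesion gene Esam (-1.33), all on the log2 scale and named after their values were seen.

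Whether stress changed a gene differently in cluster 16 and cluster 2 was tested with the mouse as a block. Of 12622 genes, 3 passed (0.0238%), among them Camk2b and Xaf1. DESeq2 called 19, and the count was 10, 92 and 3 without control mouse 1, 2 and 3 and 9, 1 and 5 without stress mouse 1, 2 and 3. For Camk2b, a calcium-dependent kinase subunit, the log2 fold changes differed by 1.45 ± 0.21 (edgeR adjusted p = 0.020), and cluster 2 stood at 61.1 to 101 CPM in the control mice and 18.3 to 31.4 CPM in the stress mice, a difference that did not pass there by itself (edgeR adjusted p = 0.086). Xaf1, an interferon-inducible gene, rose in cluster 16 from 6.73, 8.03 and 7.12 CPM to 30.4, 29.5 and 32.995 CPM, and differed by 1.59 ± 0.25 (edgeR adjusted p = 0.046). Neither gene passed without called doublets, in the shallow cells alone or without stress mouse 2. Of the 3 genes, 1 passed without stress mouse 3, and 2 passed without control mouse 1, control mouse 3 or stress mouse 1. In tumor cells the log2 fold changes of Camk2b and Xaf1 were -0.30 and 1.20. The part of the tumor genes carried by cluster 16 in these values was not tested.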

How the data were processed

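Single-cell RNA libraries of 6 H22 liver tumors (3 control and 3 stress mice) were analysed. The authors deposited UMI counts per gene and cell, made with Cell Ranger (9.0.0 for control, 7.1.0 for stress libraries, per the file headers) on mm10, and a table of annotated cells with clusters made in Seurat, whose labels were used as given. The members, gene lists and tests were chosen with earlier results of these data known.

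Counts were summed per mouse over the cells of cluster 16, cluster 2 or the tumor and the sums were compared in R 4.3.3 by the quasi-likelihood test of edgeR 4.0.16 (low genes dropped by filterByExpr, library sizes scaled by TMM, Benjamini-Hochberg adjustment). The cluster-by-stress term was fitted over both clusters with the mouse as a block. Single values were compared over mice with an exact permutation test. Doublets were called per library with Scrublet in scanpy 1.11.5 and were kept, and no further cell filter was applied. Genes named are the 10 largest changes in each direction past the threshold, list members past it, genes of the cluster-by-stress term, and leading genes by fold over cluster 2. Junction and marker genes were shown whatever their value. Each test was first tested on simulated data. Alternatives were DESeq2 1.42.0, RLE scaling, no count filter, a fold minimum, subsets of cells, a replicate block and leaving out each mouse. CPM were computed from the deposited counts, and those given with the stress tests were also scaled by TMM. A gene past the threshold of the cluster-by-stress term is not reported here.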

Additional observations from a re-analysis of the deposited data

Results flagged for a closer look

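The stress effect (log2 fold change, stress over control, 3 mice each) differed between cluster 16 and cluster 2 by the cluster-by-stress term of edgeR's quasi-likelihood test with Benjamini-Hochberg adjustment for these genes. For Camk2b the effect in cluster 16 minus that in cluster 2 was 1.45 (adjusted p = 0.020). For Xaf1 it was 1.59 (adjusted p = 0.046). Neither gene passed without called doublets, in cells low in tumor-specific UMIs or in the cells under 5000 UMIs, nor when stress mouse 2 was left out, and 84.3% of the deep cells were called doublets. When stress mouse 3 was left out, 1 of the 3 genes past the threshold of this term still passed.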

How the results depend on the processing

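The direction of the difference in the share of ECs and in tumor-specific UMIs was kept under all alternatives, but without called doublets the tumor-specific difference was -0.842 and the proliferation difference -0.175 (each p = 0.10, exact permutation test; the filter left fewer deep cells in each stress mouse than in any control mouse), and the median over cells gave -0.552 for tumor-specific UMIs. The proliferation share reversed in the shallow cells alone (0.0126 percentage points, p = 0.60, exact permutation test). Leaving out each mouse gave differences of -5.70 to -0.74 for the share of ECs, -0.27 to -0.12 for tumor-specific UMIs and -0.17 to -0.048 for proliferation genes.

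The number of genes that passed under stress was 74 of 11632 tested. It became 433 of 21751 with no filter on low counts and 214 of 21740 with DESeq2. It was 36 of 7384 without called doublets, 10 of 2633 in cells low in tumor-specific UMIs and 12 of 3399 in the shallow cells. Of the 74 genes, 61, 31 and 36 were tested in these subsets of cells, and 17, 6 and 7 passed. Leaving out each mouse gave 16 to 194, and 16 of the 74 genes passed in all 6 of these fits. For the cluster-by-stress term the number was 3 of 12622 tested. Under the first 4 of these settings it became 161 of 23440, 19 of 23440, 6 of 11583 and 24 of 10615. It was 6 with the deep cells alone, and 1 to 92 when each mouse was left out. Of the 3 genes, 0 passed among the 6 without called doublets, the 24 in low-tumor cells or the 3 in shallow cells, so other genes made up those counts. The cause was not tested. The split at 5000 UMIs was chosen after seeing the data. With a replicate block the counts were 230 and 43. Whether the replicate numbers pair the mice was not tested. In cluster 16, same-numbered mice deviated together with correlations of 0.436, 0.403 and -0.108, and differently numbered mice with -0.538 to 0.366. In cluster 2 the same-numbered values were 0.628, 0.523 and -0.154, and the others ran from -0.659 to 0.379. A list at 30 times instead of 10 times held 0 genes and gave no value. The libraries number 3 a group, and genes with few UMIs in the shallow cells could not be tested.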
